A study of Mus musculus with 9 samples.

Results

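The genes described here are 10 members of the arrest and feedback arm of the p53 pathway: Trp53, Mdm2, Mdm4, Cdkn1a, Ccng1, Phlda3, Trp53inp1, Plk2, Ppm1d and Gtse1. They were taken by name for their known roles, from the 57010 genes of a count table and with earlier results of these data known, and all 10 had more than 10 reads in each of the 9 embryos, as did 13680 genes in all. The table holds bulk mRNA sequencing of cortex dissected from individual mouse embryos (E12.5, early in cortical neurogenesis), with 3 embryos for each of 3 genotypes. The study asked which transcripts change when CNOT3, a subunit of the CCR4-NOT complex that removes poly(A) tails from mRNA, is lost from the cortex, and what remains of those changes when p53 is lost as well.

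Control embryos (Ctrl) are labelled WT, and the sources used here do not give their lox or Cre status. Conditional knockout embryos (cKO) lost Cnot3 through floxed alleles and Emx1-Cre, and double conditional knockout embryos (dcKO) lost Cnot3 and Trp53 through floxed alleles of both genes and the same Cre. Emx1-Cre acts in radial glial cells of the dorsal telencephalon and in the cells they produce, and vessels, blood, microglia and meninges in the dissected tissue lie outside that lineage. The labels name no treatment.

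p53 is a transcription factor whose protein is held low in unstressed cells by MDM2, a ubiquitin ligase, and by MDM4, its partner and an inhibitor of p53 activity. When the protein accumulates it switches on genes that stop the cell cycle, among them Cdkn1a, which encodes the CDK inhibitor p21, and also genes that act back on the pathway, among them Mdm2, Ccng1 and the phosphatase gene Ppm1d. In the developing cortex the pathway is best known for the death and arrest of progenitors under replication, mitotic or ribosomal stress.

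p53 binds pairs of a 10-base motif (the p53 decamer), and the start sites of the genes were searched for it because several of them moved together. RefSeq promoter windows (GRCm38.p6), from 250 bases before to 50 bases after a start site, were given for 9 of the 10 genes, 12 windows in all, and for Trp53inp1 none was given. An exact match to the decamer consensus, which reads the same on both strands, lay in 8.36% of all 32817 windows, and a full site, 2 decamers in a row over 20 bases with at most 2 mismatches and both cores intact, in 0.158%. Full sites lay in a window of Cdkn1a and of Gtse1, each with 1 mismatch. Single decamers lay in the windows of Trp53, Mdm2, Ccng1 and Ppm1d, and neither form lay in those of Mdm4, Phlda3 and Plk2. The stretches of 4 genes are shown 5′ to 3′ on the gene's strand: Cdkn1a and Ccng1 had the largest fold differences in cKO in the main test given below, Gtse1 holds the other full site, and Mdm2 is the classical feedback gene. Capitals mark the matches.
Cdkn1a, chr17:29090866-29090978, plus strand: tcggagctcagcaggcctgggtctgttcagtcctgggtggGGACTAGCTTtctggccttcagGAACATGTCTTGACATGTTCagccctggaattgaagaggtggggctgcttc
Gtse1, chr15:85859905-85859964, plus strand: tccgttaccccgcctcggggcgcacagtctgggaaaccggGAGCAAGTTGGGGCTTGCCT
Ccng1, chr11:40755422-40755511, minus strand: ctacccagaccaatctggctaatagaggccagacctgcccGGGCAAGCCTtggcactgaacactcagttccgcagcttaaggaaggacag
Mdm2, chr10:117710895-117710984, minus strand: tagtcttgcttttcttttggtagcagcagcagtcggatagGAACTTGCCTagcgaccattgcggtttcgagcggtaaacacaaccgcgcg
The full site of Cdkn1a begins 51 bases before the upstream of its 2 start sites, and that of Gtse1 begins 1 base before a start site and runs over it. The decamers of Ccng1 and Mdm2 begin 185 and 186 bases before their start sites. A match is a match of letters only, and its absence concerns these windows only.

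Depth and the state of the libraries bear on every value below. The 9 libraries held 21193798 to 45073349 counted reads, and levels are given as normalized CPM, counted reads relative to the TMM-scaled library size. Cnot3, the targeted gene, stood at 117.3, 107 and 98.2 CPM in the Ctrl embryos and at 14.96, 17.2 and 14.6 in the cKO embryos. In the dcKO embryos it stood at 7.33, 48.2 and 19.04. The library labelled dcKO replicate 2 thus kept 44.9% of the Ctrl mean of Cnot3, against 6.82% and 17.7% in the other dcKO libraries, and it was also the deepest. It stands apart for Trp53 too, and values without it are given beside the results it moves most. Markers of the dorsal telencephalon were high throughout, summing to 1313 to 2229 CPM, while subpallial markers summed to 1.14 to 7.08 CPM.

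Trp53 was lower in every cKO embryo than in any Ctrl embryo and lower still in every dcKO embryo. It lies at chr11:69580359-69591873 on the plus strand (GRCm38), has 4045 exonic bases, and 3.88% of its 50-base runs also occur in transcripts of other genes, the pseudogene Trp53-ps among them. Its level was 237, 254 and 215 CPM in Ctrl, 167, 164 and 167 CPM in cKO, and 15.1, 110 and 20.6 CPM in dcKO. The 3 genotypes did not overlap, and the cKO embryos were closer to each other than those of either other group. The dcKO embryos kept 6.41%, 46.9% and 8.76% of the Ctrl mean, so the same library that kept most Cnot3 also kept most Trp53. The difference between cKO and Ctrl was -0.50 on the log2 scale (SE 0.59, edgeR adjusted p = 0.616), and 1.42-fold lower as a ratio of means. Its SE came from a spread shared with the uneven dcKO group: within the 6 embryos of cKO and Ctrl the edgeR adjusted p was 0.00083, though the fold stayed under 2. Between dcKO and Ctrl the log2 difference was -2.27 (SE 0.62, adjusted p = 0.0605). Without dcKO replicate 2 it was -3.72, with an adjusted p of 1.6e-04. Between dcKO and cKO it was -1.77 (SE 0.61, adjusted p = 0.889), and without that library -3.22, with an adjusted p of 4.4e-04.

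A call here means a Benjamini-Hochberg adjusted p under 0.05 over all 13680 genes and a log2 difference over 1 in size. The main test was edgeR's quasi-likelihood test with all 9 embryos in 1 model. It called 2 genes of 13680 in cKO against Ctrl, 0.0146%, and no member was one of them. The same fit had 6 members at an unadjusted p under 0.05, where 27% of all genes lay. DESeq2, the tool of the study, called 5 members, all higher in cKO, where it called 4.94% of all genes higher. edgeR within the 6 embryos called the same 5 genes, Cdkn1a, Ccng1, Phlda3, Trp53inp1 and Plk2, against 6.91% of all genes called higher. Over the 10 members the median log2 difference was 0.93, and over all genes 0.0098. In every cKO embryo 6 members stood above every Ctrl embryo, as did 29.2% of all genes, and 3 stood below, as did 28%. With 3 embryos against 3 an exact two-sided permutation test cannot give less than p = 0.1, which is what it gave for each of those 9 members. The embryos are separate animals, so the p-values set the difference between genotypes against the spread between animals. In the main test that spread was estimated over all 3 genotypes.

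**Figure D1:**
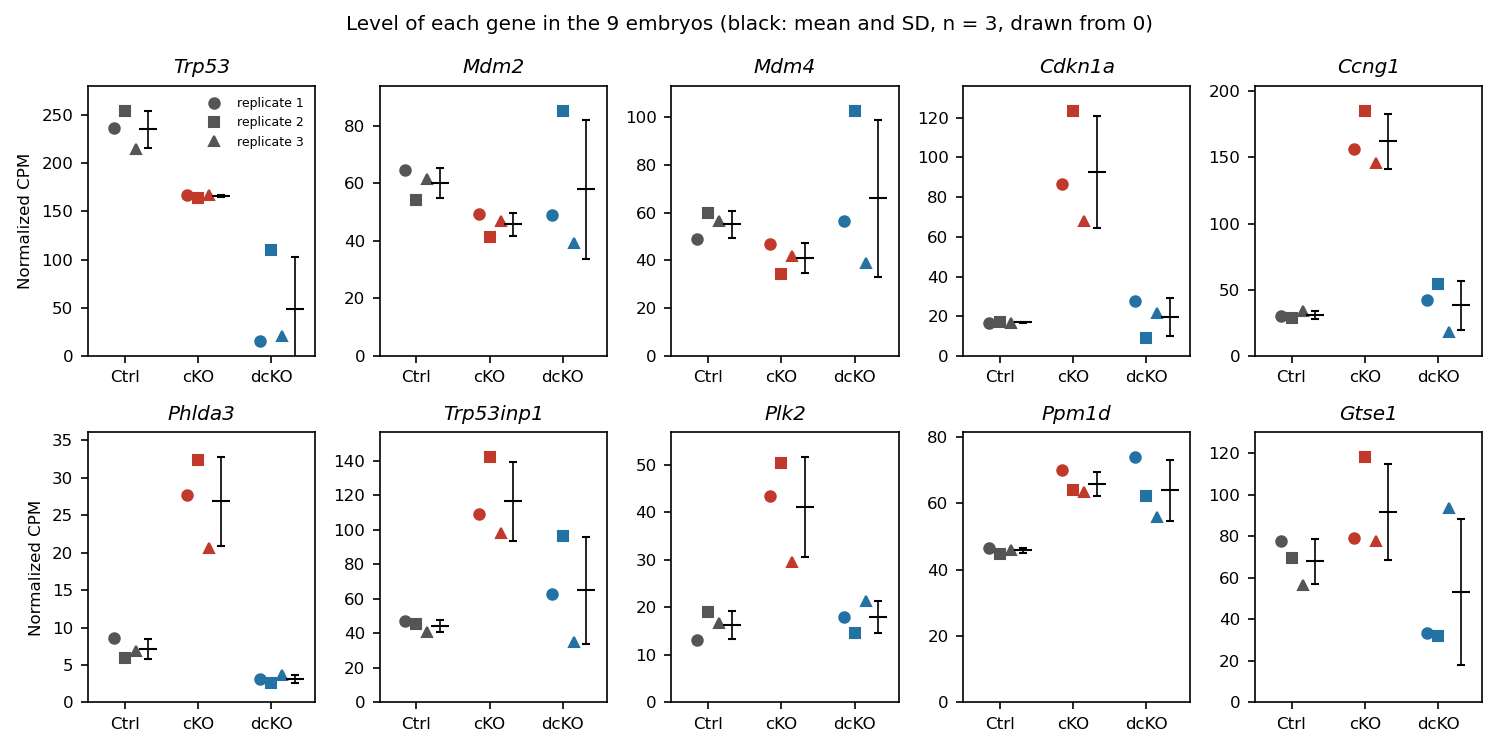
Normalized CPM (vertical axes, from 0) of the 10 genes in each of the 9 embryos, by genotype, with a marker shape for each replicate number and a black bar for the mean ± SD (n = 3). Cdkn1a, Ccng1, Phlda3, Trp53inp1 and Plk2 lie higher in all 3 cKO embryos than in any other embryo, Trp53 steps down across the 3 genotypes, and Ppm1d is higher in cKO and dcKO than in Ctrl.

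Among the arrest genes, Cdkn1a showed the largest difference in cKO. It lies at chr17:29090976-29100727 on the plus strand (GRCm38), and 273 of its exonic bases overlap AC167363.2 on the opposite strand; the kit keeps strand, but the strand setting of the counting is not given in the sources used here. Its level was 16.7, 17.3 and 16.6 CPM in Ctrl, 86.6, 124 and 68.1 CPM in cKO, and 27.9, 8.99 and 21.5 CPM in dcKO. The Ctrl embryos were nearly equal, every cKO embryo was far above them, and the dcKO embryos lay on both sides of the Ctrl range. In cKO the mean was 5.50-fold that of Ctrl, a log2 difference of 2.46 (SE 0.38), with an adjusted p of 0.0509 by edgeR, 2.5e-07 by DESeq2 and 3.3e-05 by edgeR within the 6 embryos. In dcKO it was 4.77-fold lower than in cKO, a log2 difference of -2.25 (SE 0.38), with an adjusted p of 0.319 by edgeR and 1.0e-05 by DESeq2. Between dcKO and Ctrl the log2 difference was 0.21 (SE 0.37, edgeR adjusted p = 0.729), and without dcKO replicate 1 it was -0.15 by edgeR and -0.18 by DESeq2.

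Plk2, a polo-like kinase gene that p53 switches on, lies at chr13:110395046-110400844 on the plus strand (GRCm38). Its level was 13.1, 19.1 and 16.6 CPM in Ctrl, 43.5, 50.3 and 29.6 CPM in cKO, and 17.9, 14.7 and 21.4 CPM in dcKO. The cKO embryos stood above all others, and the dcKO and Ctrl embryos overlapped. The cKO mean was 2.53-fold that of Ctrl, a log2 difference of 1.34 (SE 0.27), with an adjusted p of 0.0509 by edgeR and 2.4e-04 by DESeq2. The log2 difference of dcKO from cKO was -1.19 (SE 0.27), with an adjusted p of 0.624 by edgeR and 0.00663 by DESeq2.

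Gtse1 encodes a microtubule-associated protein of G2 and mitosis that binds p53 and lowers its activity, and it lies at chr15:85859745-85876573 on the plus strand (GRCm38). Its level was 77.9, 69.5 and 56.4 CPM in Ctrl, 79.4, 118 and 77.6 CPM in cKO, and 33.7, 31.9 and 93.9 CPM in dcKO. The groups overlapped in all 3 comparisons, and in dcKO a single embryo, replicate 3, stood far above the other two. With all 9 embryos none of the 3 comparisons passed edgeR or DESeq2. The log2 difference was 0.43 (SE 0.39) in cKO against Ctrl, -0.36 (SE 0.39) in dcKO against Ctrl and -0.79 (SE 0.39) in dcKO against cKO. Without dcKO replicate 3 the dcKO differences were -1.05 against Ctrl and -1.48 against cKO, and both passed edgeR (adjusted p = 0.00278 and 0.0121) and DESeq2 (adjusted p = 2.0e-05 and 5.0e-08); within the embryos of dcKO and cKO alone the edgeR adjusted p was 0.0568. Without dcKO replicate 2 they were -0.092 and -0.53 by edgeR, and neither passed.

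Ccng1, an atypical cyclin gene whose product draws the phosphatase PP2A to MDM2, was the feedback gene with the largest difference in cKO in the main test; under a correction for GC content its log2 difference was 2.14 and that of Phlda3 2.72. It lies at chr11:40748552-40755311 on the minus strand (GRCm38). Its level was 30.2, 28.6 and 34.0 CPM in Ctrl, 156, 185 and 145 CPM in cKO, and 42.4, 54.4 and 17.8 CPM in dcKO. Each cKO embryo exceeded each embryo of the other groups, and dcKO replicate 3 fell below the Ctrl range while the other two lay above it. The cKO mean was 5.25-fold that of Ctrl, a log2 difference of 2.39 (SE 0.35), with an adjusted p of 0.0509 by edgeR and 6.9e-08 by DESeq2. In dcKO against cKO the log2 difference was -2.08 (SE 0.34), with an adjusted p of 0.298 by edgeR and 1.6e-05 by DESeq2. Between dcKO and Ctrl it was 0.31 (SE 0.33, edgeR adjusted p = 0.555). There it was 0.65 without dcKO replicate 3 (edgeR adjusted p = 0.00762) and -0.037 without dcKO replicate 2 (edgeR adjusted p = 0.946).

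Phlda3, whose pleckstrin homology domain protein competes with AKT for membrane lipids, had the largest difference between dcKO and cKO of the members in the main test. It lies at chr1:135766119-135769136 on the plus strand (GRCm38). Its level was 8.64, 6.0 and 6.89 CPM in Ctrl, 27.7, 32.4 and 20.6 CPM in cKO, and 3.16, 2.66 and 3.68 CPM in dcKO. All 3 genotypes were separate, with dcKO below Ctrl and cKO above it, and dcKO replicate 2 was here like the other dcKO embryos. The cKO mean was 3.74-fold that of Ctrl, a log2 difference of 1.90 (SE 0.28), with an adjusted p of 0.0509 by edgeR and 1.3e-08 by DESeq2; the correction for GC content moved it to 2.72 (edgeR adjusted p = 0.0234). Against cKO, Phlda3 fell 8.48-fold in dcKO, a log2 difference of -3.08 (SE 0.30, edgeR adjusted p = 0.0130). It was the only member edgeR called in that comparison and 1 of 2 genes called in all, 0.0146%; the adjusted p was 0.132 when only the 6 embryos compared were fitted. Leaving out single embryos ended this edgeR call without cKO replicate 1, cKO replicate 2 or dcKO replicate 1, with the log2 difference between -3.28 and -2.93 throughout.
Against Ctrl, Phlda3 was 2.26-fold lower in dcKO, a log2 difference of -1.18 (SE 0.28), with an adjusted p of 0.0511 by edgeR and 0.00106 by DESeq2. That difference turned to 0.11 under the GC correction; its longest transcript holds 62.6% G and C, the highest share of the 10 members. Ppm1d, Phlda3 and Trp53 were the members whose dcKO and Ctrl embryos did not overlap, 1 higher and 2 lower, where 15.6% of all genes were higher and 11.2% lower. Of these, Trp53 is the gene deleted in dcKO.

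Trp53inp1 encodes a stress protein that works with p53 in arrest, death and autophagy, and it lies at chr4:11156431-11174379 on the plus strand (GRCm38). Its level was 47.0, 45.6 and 40.6 CPM in Ctrl, 109, 142 and 97.9 CPM in cKO, and 62.9, 96.7 and 35.2 CPM in dcKO. Every cKO embryo was above every Ctrl embryo, but dcKO replicate 2 reached almost to the lowest cKO embryo. The cKO mean was 2.62-fold that of Ctrl, a log2 difference of 1.39 (SE 0.32), with an adjusted p of 0.0514 by edgeR and 0.00236 by DESeq2. In dcKO against cKO the log2 difference was -0.84 (SE 0.31, adjusted p = 0.889 by edgeR and 0.626 by DESeq2). Without dcKO replicate 2 it was -1.25 by edgeR, with an adjusted p of 0.562, and -1.28 by DESeq2, with an adjusted p of 0.00493. Without dcKO replicate 3 it was -0.55 by edgeR and -0.54 by DESeq2. Between dcKO and Ctrl the log2 difference of Trp53inp1 was 0.55 (SE 0.31, edgeR adjusted p = 0.266). There it was 0.85 without dcKO replicate 3 (edgeR adjusted p = 0.00684) and 0.14 without dcKO replicate 2 (edgeR adjusted p = 0.720).

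Ppm1d encodes WIP1, a phosphatase that removes activating phosphates from p53 and from the kinases above it, and it lies at chr11:85311244-85347066 on the plus strand (GRCm38). Its level was 46.4, 44.8 and 46.0 CPM in Ctrl, 70.0, 63.9 and 63.4 CPM in cKO, and 73.8, 62.1 and 55.8 CPM in dcKO. Both mutant genotypes stood above all Ctrl embryos and overlapped each other. The log2 difference from Ctrl was 0.52 (SE 0.16) in cKO and 0.48 (SE 0.16) in dcKO, under the fold asked for a call. The cKO value had an adjusted p of 0.0821 by edgeR and 0.0290 by DESeq2, and the dcKO value 0.0920 and 0.0524. Between dcKO and cKO it was -0.04 (SE 0.16).

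Neither gene for the 2 inhibitors of p53 was higher in cKO. Mdm2, at chr10:117688875-117710758 on the minus strand (GRCm38), stood at 64.5, 54.3 and 61.5 CPM in Ctrl, 49.1, 41.4 and 46.7 CPM in cKO, and 49.1, 85.3 and 39.3 CPM in dcKO. All cKO embryos lay below all Ctrl embryos, and in dcKO the replicate 2 library was above and the others below the Ctrl range. The log2 difference in cKO was -0.39 (SE 0.26), with an adjusted p of 0.367 by edgeR, 0.374 by DESeq2 and 0.0128 by edgeR within the 6 embryos, at a fold under 2. 

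Mdm4, at chr1:132959484-133030561 on the minus strand (GRCm38), stood at 48.8, 59.7 and 56.5 CPM in Ctrl, 47.0, 34.2 and 41.7 CPM in cKO, and 56.3, 103 and 38.9 CPM in dcKO. Again the cKO embryos were below the Ctrl embryos, and dcKO replicate 2 held the highest level of all 9. The log2 difference in cKO was -0.42 (SE 0.31), with an adjusted p of 0.410 by edgeR, 0.414 by DESeq2 and 0.0237 within the 6 embryos. Of its 50-base runs, 7.3% also occur in other transcripts, those of the pseudogene Mdm4-ps included. Without dcKO replicate 2 the dcKO difference from Ctrl was -0.44 for Mdm2 and -0.21 for Mdm4, against -0.05 and 0.26 with it. Without dcKO replicate 3 it was 0.16 and 0.53. Between dcKO and cKO the log2 difference was 0.34 (SE 0.26) for Mdm2 and 0.69 (SE 0.31) for Mdm4, each with an edgeR adjusted p of 0.889. Without dcKO replicate 3 these were 0.55 and 0.96 (edgeR adjusted p = 0.0746 and 0.0202), and without dcKO replicate 2 -0.05 and 0.22.

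**Figure D2:**
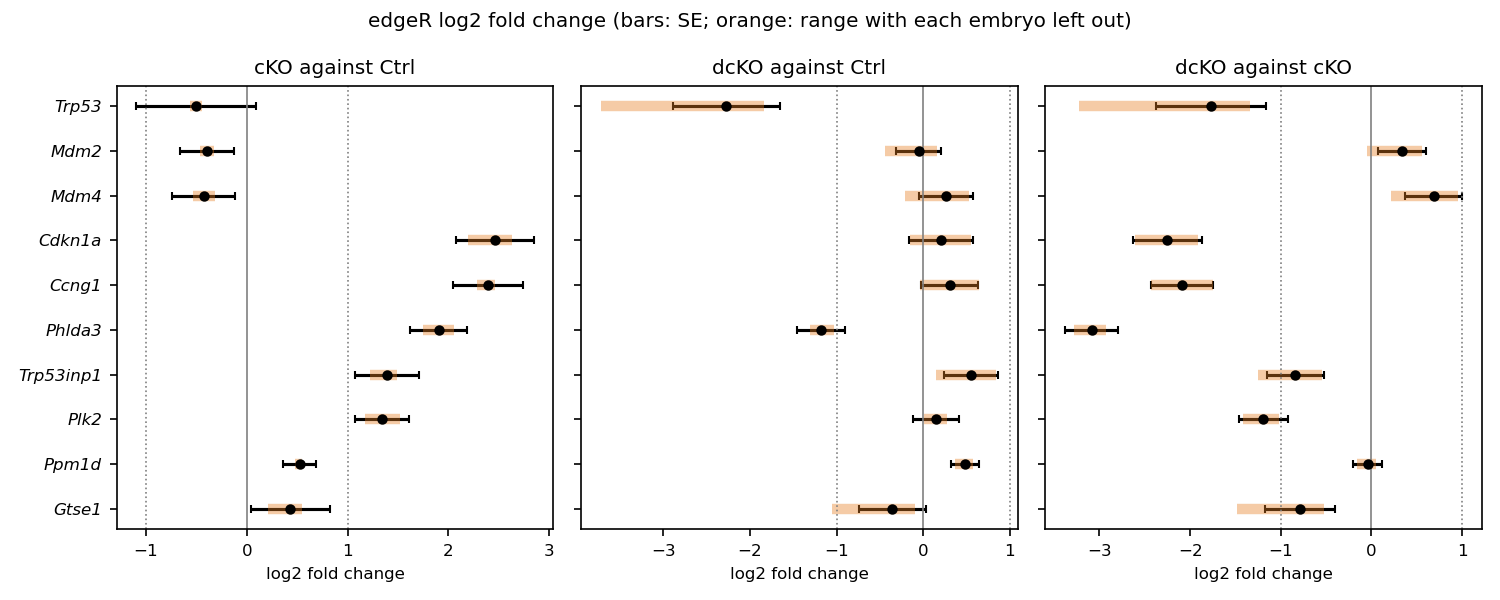
log2 fold change of the 10 genes in each comparison of genotypes (horizontal axes; black points and bars, edgeR estimate and SE with all 9 embryos; orange, range when each embryo is left out in turn; dotted lines, log2 of -1 and 1). Cdkn1a, Ccng1, Phlda3, Trp53inp1 and Plk2 lie beyond 1 in cKO against Ctrl, and the orange range of Trp53 in the dcKO comparisons reaches -3.72 against Ctrl without dcKO replicate 2.

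The 3 comparisons share embryos, so their values are given side by side. In dcKO against cKO DESeq2 called 4 members, Cdkn1a, Ccng1, Phlda3 and Plk2, all lower, where it called 0.351% of all genes lower. In every dcKO embryo 6 members lay below every cKO embryo (Trp53, Cdkn1a, Ccng1, Phlda3, Trp53inp1 and Plk2), as did 3.63% of all genes. The median log2 difference of the members was -1.02, against 0.067 over all genes. Trp53 is the gene deleted in dcKO, so its lower level there was set by the genotype. It is included in this median and in all counts of members. Within the 6 embryos of that comparison edgeR called 0 genes, with 295 at an unadjusted p under 0.05 of 13680. In dcKO against Ctrl the main edgeR test called 0 genes, with 3994 genes (29.2%) and 3 members at an unadjusted p under 0.05, while DESeq2 called 8.46% of genes and 1 member, Phlda3. These counts changed when single embryos were left out. In dcKO against Ctrl edgeR called 1330 genes and 2 members without dcKO replicate 2, and 3245 genes and 3 members without dcKO replicate 3. DESeq2 called 402, 1640 and 3297 genes there without dcKO replicates 1, 2 and 3, and 503 to 988 without a Ctrl or cKO embryo, with 2 members each time except 3 without dcKO replicate 3. For dcKO against cKO, edgeR called 4 genes and 2 members without replicate 2 and 1236 genes and 5 members without replicate 3, and DESeq2 called 54 genes and 6 members without replicate 2 and 1435 genes and 5 members without replicate 3. Without cKO replicate 1 or cKO replicate 2 edgeR called 0 genes there, with 344 and 246 at an unadjusted p under 0.05, and DESeq2 called 17 and 16 genes with 3 members each time. Without dcKO replicate 1 edgeR called 0 genes, with 954 at an unadjusted p under 0.05, and DESeq2 82; without a Ctrl embryo they called 1 to 3 and 32 to 36. In dcKO against Ctrl with all embryos the members' median was 0.18 and that of all genes 0.11. With all 9 embryos DESeq2 gave no adjusted p for Trp53 in any comparison, so Trp53 could not be among the members it called there.

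The dcKO embryos did not share 1 pattern. Replicate 2, which kept most Trp53, had the lowest Cdkn1a of all 9 embryos, 53.3% of the Ctrl mean, but the highest Ccng1 of the dcKO group, 176%. Replicate 3 had Ccng1 at 57.4% and Cdkn1a at 128% of the Ctrl mean, and replicate 1 had them at 137% and 165%. Phlda3 was low in all of them, at 44.1%, 37.0% and 51.3%. No relation to remaining Trp53 was tested, since there are only 3 dcKO embryos.

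**Figure D3:**
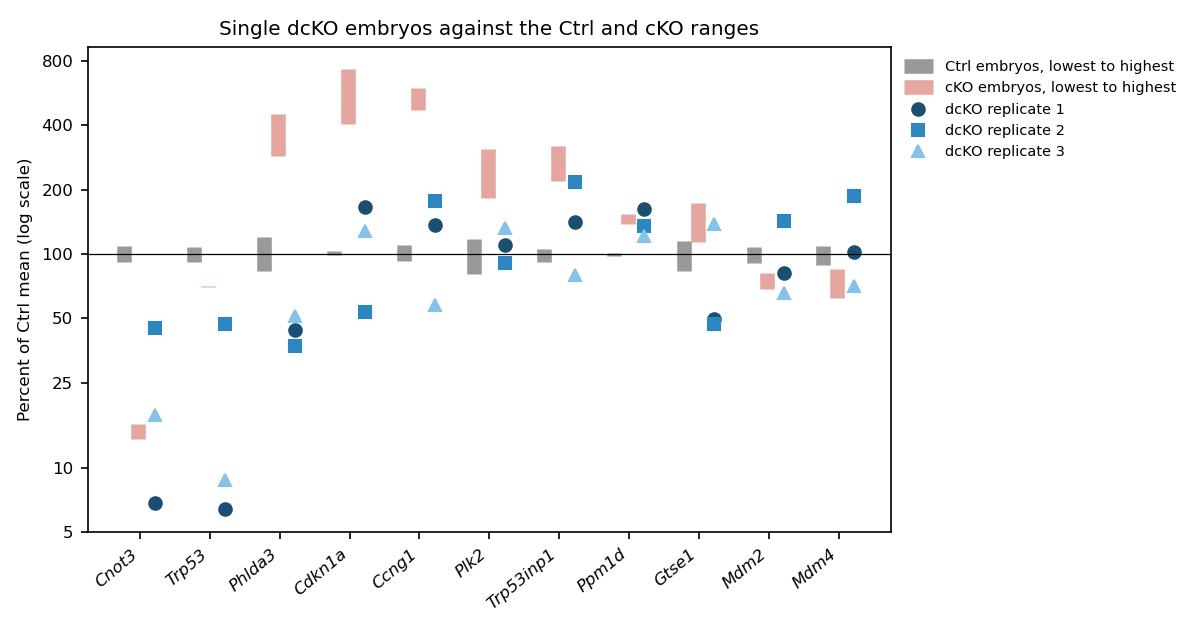
Level of Cnot3 and the 10 genes as percent of the Ctrl mean (vertical axis, log scale) in each dcKO embryo (blue markers), with the lowest to highest embryo of Ctrl (grey bars) and of cKO (red bars). dcKO replicate 2 stands above the other dcKO embryos for Cnot3, Trp53, Mdm2 and Mdm4 and below them for Cdkn1a, and all dcKO embryos lie below Ctrl for Phlda3.

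Per kilobase of exon, Trp53 was the most abundant member in Ctrl, at 58.1 CPM per kb, followed by Gtse1 at 24.8, Ppm1d at 14.4, Mdm2 at 11.8, Ccng1 at 8.81 and Trp53inp1 at 6.86. These 6 levels did not overlap between neighbours. Cdkn1a at 4.74, Phlda3 at 4.60, Mdm4 at 3.72 and Plk2 at 3.62 CPM per kb closed the order, and each overlapped its neighbour. In cKO Ccng1 came first at 46.2 CPM per kb, above Trp53 at 41.1 without overlap, and Cdkn1a stood at 26.1, overlapping Gtse1 and Ppm1d. In dcKO Ppm1d came first at 20.1 and Phlda3 last at 2.03 CPM per kb, and only Phlda3 was separate from its neighbour, Plk2.

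**Figure D4:**
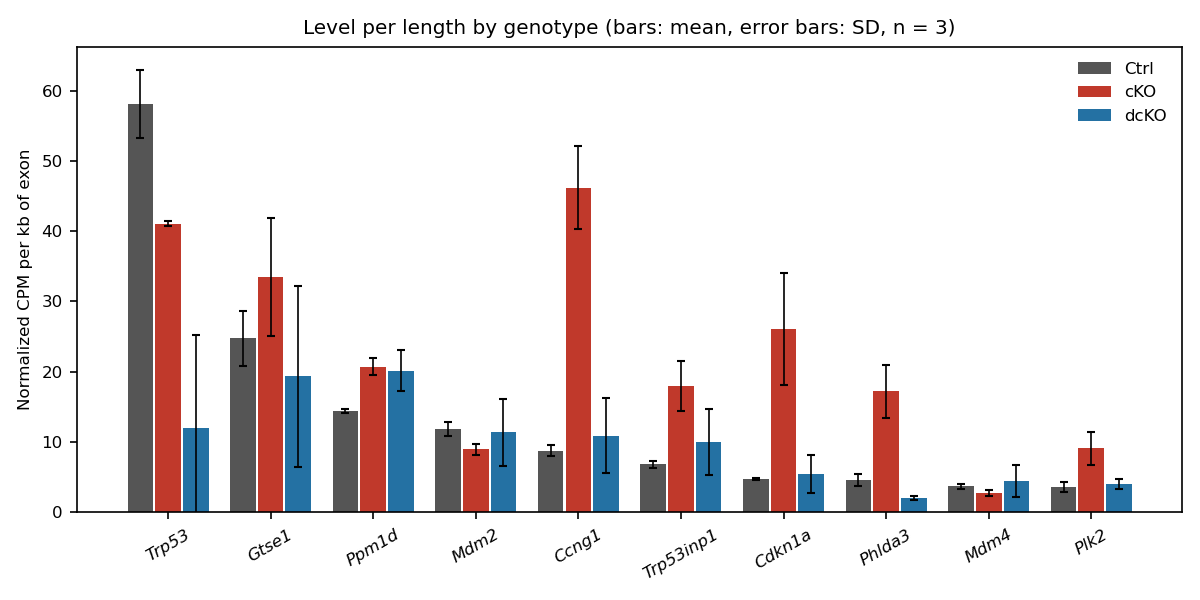
Normalized CPM per kb of exon (vertical axis; bars, mean; error bars, SD, n = 3 embryos) of the 10 genes by genotype, ordered by the Ctrl level. Trp53 leads in Ctrl at 58.1 and Ccng1 in cKO at 46.2 CPM per kb.

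Each embryo's label holds a code with a number, whose meaning is not given there, and some embryos share the number. Between cKO replicate 2 and Ctrl replicate 1, which share one, Cdkn1a differed 7.41-fold, Ccng1 6.14-fold, Phlda3 3.74-fold, Plk2 3.84-fold and Trp53inp1 3.03-fold. Between cKO replicate 3 and Ctrl replicate 2 the same genes differed 3.93-, 5.09-, 3.43-, 1.55- and 2.15-fold. For these genes every cKO embryo stood above every Ctrl embryo, so the direction within any such pair was fixed beforehand. Only the sizes are given here. dcKO replicate 3 and Ctrl replicate 3 shared another number, and the dcKO embryo there stood at 1.30 times the Ctrl embryo for Cdkn1a, 0.522 for Ccng1, 0.535 for Phlda3, 1.29 for Plk2 and 0.867 for Trp53inp1.

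Marker sums of other cell types in the tissue differed between genotypes for some lists and comparisons and overlapped for others. The 7 markers of microglia and macrophages summed to 46.0 to 54.0 CPM in Ctrl, 59.9 to 116.6 in cKO and 21.5 to 39.6 in dcKO, and the 7 of cortical hem and choroid plexus to 81.9 to 112, 119.5 to 359 and 154 to 372. Those of meningeal fibroblasts summed to 782 to 860, 453 to 698 and 325 to 520 CPM, and endothelial markers to 204 to 274, 203 to 280 and 134 to 147, with 7 genes in each list. The sums follow the most abundant genes: over the 7 meningeal markers the median log2 difference in cKO against Ctrl was 0.00078. The 8 erythroid markers summed to 7687 to 11457.5 CPM in Ctrl, 9524 to 14495 in cKO and 4941 to 6775 in dcKO. None of these markers was at 0 in all embryos. In cKO against Ctrl DESeq2 called 1 of 5 tested microglial markers, 3 of 4 hem and choroid plexus markers, 2 of 10 dorsal telencephalic markers and 0 meningeal, endothelial or erythroid markers, where it called 8.82% of all genes. In dcKO against Ctrl it called 4 of 8 erythroid, 3 of 7 meningeal, 2 of 7 endothelial, 3 of 4 hem and choroid plexus and 0 microglial markers, where it called 8.46% of all genes, and in dcKO against cKO 2 erythroid, 1 endothelial and 1 microglial marker, where it called 0.38%. Their part in the members' differences was not tested, and in bulk tissue fewer cells of a type cannot be told apart from less RNA per cell.

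The other genes of the pathway are given by list. Of 12 other arrest targets 9 could be tested, their median log2 difference in cKO was -0.06, and DESeq2 called 1 higher and 1 lower, where it called 4.94% of all genes higher and 3.87% lower. The higher was Zfp365, a gene of genome maintenance, at 7.67, 6.10 and 8.15 CPM in Ctrl and 20.5, 27.6 and 16.0 CPM in cKO (log2 difference 1.55, SE 0.28, DESeq2 adjusted p = 2.7e-05). The lower was Rprm, whose product Reprimo mediates arrest in G2, at 122, 82.6 and 53.9 CPM in Ctrl and 38.7, 33.5 and 25.5 CPM in cKO (log2 difference -1.40, SE 0.40, DESeq2 adjusted p = 0.00835). The groups did not overlap for either gene. Cdkn1b, which encodes the related CDK inhibitor p27, had a log2 difference of -0.06 (SE 0.16) in cKO and of 0.55 (SE 0.16) in dcKO.

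Of 12 apoptotic targets 9 could be tested, and Bbc3, Pmaip1 and Fas did not reach the read minimum. DESeq2 called 3 higher (Eda2r, Tnfrsf10b and Perp) and 1 lower (Siva1) in cKO and 2 lower (Eda2r and Tnfrsf10b) in dcKO against cKO, and the median log2 difference was 0.40 in cKO. Of all genes it called 4.94% higher and 3.87% lower in cKO, and 0.351% lower in dcKO against cKO. Eda2r, a death receptor gene, stood at 2.00, 2.38 and 2.85 CPM in Ctrl, 40.1, 58.5 and 36.3 CPM in cKO, and 4.28, 2.84 and 1.37 CPM in dcKO. It was the other gene edgeR called in dcKO against cKO (log2 difference -3.98, SE 0.42, adjusted p = 0.0168), and it was called in cKO against Ctrl (log2 difference 4.22, SE 0.43, adjusted p = 0.0232). Tnfrsf10b, also a death receptor gene, had a log2 difference of 1.36 (SE 0.29, DESeq2 adjusted p = 3.1e-04) in cKO. Aen, a p53-induced nuclease gene, had one of 0.08 (SE 0.32) in cKO and -1.20 (SE 0.33, DESeq2 adjusted p = 0.00893) in dcKO against Ctrl.

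Of 14 stress, metabolism and repair targets 13 could be tested, with a median log2 difference of 0.82 in cKO, and DESeq2 called 4 higher (Ddit4l, Sesn2, Gls2 and Ddit4) and 0 lower there, against 4.94% and 3.87% of all genes. In dcKO against Ctrl their median was 0.63, against 0.11 over all genes. DESeq2 called 3 higher there, where it called 8.46% of all genes in either direction. In dcKO against cKO the median was -0.16 and DESeq2 called 2 lower, against 0.351% of all genes. Ddit4l, an inhibitor of mTOR signalling, stood at 5.99, 6.30 and 7.53 CPM in Ctrl, 38.9, 54.6 and 34.8 CPM in cKO, and 17.9, 15.4 and 9.56 CPM in dcKO. The 3 groups did not overlap. It was the second gene edgeR called in cKO against Ctrl (log2 difference 2.69, SE 0.30, adjusted p = 0.0290). Sesn2, a sestrin gene of the same signalling, had a log2 difference of 1.77 (SE 0.49) in cKO and of -2.16 (SE 0.50) in dcKO against cKO, with DESeq2 adjusted p of 0.00501 and 0.00356. Gls2, the glutaminase gene, was called higher by DESeq2 in cKO and in dcKO against Ctrl, with log2 differences of 1.88 (SE 0.41) and 1.72 (SE 0.41).

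Among 21 regulators of p53 protein, 20 were tested, with a median log2 difference of 0.09 in cKO, and DESeq2 called only Hipk2, lower, where it called 3.87% of all genes lower. This kinase gene stood at 136, 117.2 and 142 CPM in Ctrl, 53.4, 50.05 and 55.4 CPM in cKO, and 45.6, 110 and 50.6 CPM in dcKO. The cKO embryos lay far below Ctrl, and dcKO replicate 2 again lay near the Ctrl range. The log2 difference in cKO was -1.32 (SE 0.30, DESeq2 adjusted p = 0.0023). Of the p53 relatives, Trp63 was at 0.37 and 0.40 CPM in 2 Ctrl embryos and at 0 in the rest, and Trp73 had a log2 difference of 0.42 (SE 0.31) in cKO that passed no test.

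Of 12 G1 genes, which include the partners of p21, DESeq2 called 3 lower and 0 higher in cKO, where it called 3.87% of all genes lower, and the median was -0.36. In dcKO against Ctrl the median was -0.33 and 2 were called lower, where 8.46% of all genes were called in either direction, E2f1 (log2 difference -1.37, SE 0.27, DESeq2 adjusted p = 1.3e-04) and Ccnd3. In cKO they were E2f1, the transcription factor gene of S phase entry (log2 difference -1.34, SE 0.27, DESeq2 adjusted p = 2.1e-04), and the cyclin D genes Ccnd2 (-1.26, SE 0.36) and Ccnd1 (-1.19, SE 0.37). Ccnd2 stood at 2803, 2627 and 2823 CPM in Ctrl, 1250, 980 and 1211 CPM in cKO, and 1029, 2814 and 1059 CPM in dcKO. In dcKO, then, replicate 2 was within the Ctrl range and the other two were with the cKO embryos. None of 18 genes of G2 and M phase was called by edgeR or DESeq2 in any comparison, and their median in cKO was 0.18.

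Most close relatives of the members were not called in cKO against Ctrl, where DESeq2 called 8.82% of all genes. Plk1, Plk3 and Plk4 had log2 differences in cKO of 0.06 (SE 0.36), -0.21 (SE 0.68) and 0.02 (SE 0.30), and Plk5 did not reach the read minimum. Of 9 genes of the Ppm1 phosphatases, DESeq2 called Ppm1h alone in cKO, where it called 4.94% of all genes higher, at 3.38, 3.97 and 3.32 CPM in Ctrl against 16.5, 15.2 and 18.7 CPM in cKO (log2 difference 2.24, SE 0.53, adjusted p = 7.7e-04). DESeq2 also called Ppm1h in dcKO against Ctrl (log2 difference 1.70, SE 0.52, DESeq2 adjusted p = 0.0131), where it called 8.46% of all genes. The dcKO embryos were uneven for it, at 21.3, 3.63 and 9.69 CPM. Ppm1e had log2 differences from Ctrl of 0.50 (SE 0.19) in cKO and 0.52 (SE 0.19) in dcKO, close in value to those of Ppm1d, with all embryos of both genotypes above Ctrl and neither called. Ccng2 had a log2 difference of 0.30 (SE 0.16), Trp53inp2 of -0.64 (SE 0.35) and Phlda1 of 0.61 (SE 0.33) in cKO, and none was called by edgeR or DESeq2. Every cKO embryo stood above every Ctrl embryo for Phlda1, and every dcKO embryo below every cKO embryo, as for Phlda3.

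The genes whose pattern over the 9 embryos was most like that of Cdkn1a were Afap1l2, 1700003M07Rik, Serpine2, Ak1 and Usp2. Likeness was the root mean square difference of log2 levels relative to the Ctrl mean, and it was 0.43, 0.43, 0.46, 0.49 and 0.54. A small constant was added to each level before the log. Afap1l2 and 1700003M07Rik fell to 0.56 and 0.49 CPM in dcKO replicate 2, where that constant weighs most. Serpine2, a serine protease inhibitor gene, stood at 11.5, 12.3 and 11.9 CPM in Ctrl, 31.2, 56.2 and 34.0 CPM in cKO, and 18.4, 7.77 and 10.9 CPM in dcKO. Like Cdkn1a, it was highest in cKO replicate 2 and lowest in dcKO replicate 2. Of the members, Ccng1 ranked 29th and Plk2 37th among 13680 genes by this measure, Phlda3 129th and Trp53inp1 389th, and Ppm1d, Gtse1, Mdm2, Mdm4 and Trp53 ranked from 2215 to 13551.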

How the data were processed

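Per the labels and the study's methods, RNA of microdissected E12.5 cortices was made into TruSeq Stranded mRNA libraries. The submitters' processing notes name FastQC, cutadapt, STAR, featureCounts, DESeq2 and the mm39 build, without versions; the annotation and strand setting are not given in the sources used here. The authors deposited raw read counts per gene for 9 embryos, and these counts were used as deposited. Genotypes came from the labels.

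The 13680 genes (of 57010) whose count exceeded 10 in all embryos were tested with edgeR 4.0.16 (quasi-likelihood, TMM, 1 model of 3 genotypes, R 4.3.3), with Benjamini-Hochberg adjustment over all tested genes. DESeq2 1.42.0, limma 3.58.1 (voom with quality weights), other filters, scalings and blocks, fits of only the embryos compared and fits leaving out each embryo were alternatives. The edgeR, DESeq2 and limma steps were tested on simulated data. Levels per kilobase used exon unions of GENCODE M21 (GRCm38), and coordinates are of that build. SD is over 3 embryos. Libraries totalled 21193798 to 45073349 reads, and the rarest member, Phlda3, was counted with 89 to 870.

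The members and gene lists were chosen with earlier results of these data known. From each list the text names among the up to 3 genes with the smallest edgeR p in cKO against Ctrl and the up to 3 with the smallest in dcKO against cKO; relatives outside that rule (Plk5, Ccng2, Trp53inp2, Phlda1, Ppm1e, Siva1, Ddit4, Ccnd3) and the listed genes below the read minimum were named after their values were seen. Promoter sequences are RefSeq's (GRCm38.p6).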

Additional observations from a re-analysis of the deposited data

How the results depend on the processing

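The log2 differences of the members in cKO against Ctrl kept their direction under all alternatives; the number of calls did not hold. Chosen after the data were seen were DESeq2 and fits of only the embryos compared with each embryo left out, and a fit of only the genes with a GC value. In cKO against Ctrl the main edgeR test called 2 genes, both higher, and 0 members. DESeq2 called 1206 genes and 5 members, limma voom 1868 and 5, no filter on low counts 813 and 5, the 6 embryos alone 1758 and 5, a block for the number in the embryos' codes (number block) 1986 and 5, and the GC correction 645 (408 higher, 237 lower) and 5. In dcKO against Ctrl the main test called 0 genes and 0 members, DESeq2 1157 and 1, limma voom 3668 and 2, no filter 692 and 2, the number block 1633 and 1, the GC correction 197 genes, and the genes with a GC value, without correction, 253. In dcKO against cKO the main test called 2 genes, both lower, and 1 member, DESeq2 52 and 4, limma voom 27 and 4, no filter 8 and 3, edgeR's filterByExpr 3 genes, the 6 embryos alone 0 and 0, the number block 1583 (1349 higher, 234 lower) and 5, and the GC correction 6 genes. Under the number block only dcKO replicate 3 shares a number with another embryo, Ctrl replicate 3, so its dcKO counts rest on 1 dcKO embryo. The cause of the other differences was not tested.

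The replicate numbers are shared by the genotypes, but same-numbered embryos did not deviate together (mean correlation -0.18 over 9 pairs, -0.58 to 0.15, against 0.09 over 18 pairs with different numbers). With the replicate block 0 genes were called in cKO against Ctrl, 0 in dcKO against Ctrl, and 0 genes and 0 members in dcKO against cKO. The GC correction with the replicate block called 4 genes and 1 member, 0 genes, and 6 genes and 2 members. It moved the median log2 difference of all genes in dcKO against Ctrl from 0.11 to -0.0090.

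With single embryos left out, over edgeR, DESeq2 and the fits of only the embryos compared, 0 to 2006 genes and 0 to 5 members were called in cKO against Ctrl, 0 to 3297 genes and 0 to 3 members in dcKO against Ctrl, and 0 to 1435 genes and 0 to 6 members in dcKO against cKO. In the edgeR model of all genotypes the 5 members were called in cKO against Ctrl without dcKO replicate 1, dcKO replicate 2 or dcKO replicate 3, among 919, 1141 and 1473 genes called; 0 of all genes were called when a Ctrl or cKO embryo was left out, with 2308 to 2907 at an unadjusted p under 0.05.

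Direction turned mostly in dcKO against Ctrl. The number block, whose dcKO values are those of dcKO replicate 3 against Ctrl replicate 3 alone, gave Mdm4 -0.54, Ccng1 -0.94, Trp53inp1 -0.21 and Gtse1 0.73. The GC correction gave Mdm4 -0.22, Ccng1 -0.28, Phlda3 0.11, Trp53inp1 -0.068 and Plk2 -0.0027, and with the replicate block Mdm4 -0.24, Ccng1 -0.31, Phlda3 0.019 and Trp53inp1 -0.078. In dcKO against cKO limma voom gave Ppm1d 0.091, and the number block gave Mdm2 -0.21, Mdm4 -0.025 and Gtse1 0.35. With single embryos left out, the ranges that crossed 0 were, in dcKO against Ctrl, Ccng1 -0.072 to 0.65, Cdkn1a -0.18 to 0.55, Mdm2 -0.48 to 0.16, Mdm4 -0.24 to 0.53 and Plk2 -0.058 to 0.28, and in dcKO against cKO, Mdm2 -0.077 to 0.56 and Ppm1d -0.18 to 0.051. Values that kept their direction but moved over 1.5-fold were Trp53 under limma voom (-3.71 in dcKO against Ctrl, -3.17 against cKO), Phlda3 in cKO under the GC correction (2.72, and 2.67 with the replicate block), and under the number block Trp53 (-3.38 and -2.82) and, against cKO, Ccng1 (-3.42) and Trp53inp1 (-1.56), and Mdm2 against Ctrl (-0.64), beside those that single embryos moved. With all 9 embryos DESeq2 gave Trp53 log2 differences of -0.51 in cKO against Ctrl, -2.29 in dcKO against Ctrl and -1.78 in dcKO against cKO. It gave no adjusted p for them, so Trp53 could not be called there.

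Each genotype has 3 embryos, which limits what a single gene can show. Phlda3 was counted with 89 to 870 reads, the lowest counts of the members.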
